A study of Mus musculus with 12 samples.

Results

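The genes described here make the machinery that copies DNA and the nucleotides it uses: origin licensing factors, the MCM and GINS helicase, DNA polymerases, the sliding clamp and its loaders, and enzymes of deoxynucleotide supply. Members were the rows of the deposited table whose gene symbol is on a list of 44 such genes, and all 44 were found among 24255 genes. Levels are given as FPKM, a fragment count divided by transcript length and by library size, so they can be compared between genes. RNA came from whole ovaries of C57BL/6 mice aged 6 months, collected 46 h after 5 IU of equine chorionic gonadotropin (also called PMSG), which drives follicle growth. The CKO group (n = 5 libraries) lacks the kinase gene Mtor in oocytes through Gdf9-Cre, and the control group is labelled wild type (WT, n = 7 libraries). The Gdf9 promoter drives Cre in oocytes, so the granulosa and stromal cells of CKO ovaries keep Mtor. Whether the controls carry a floxed allele or Cre is not given in the sources used here, and nothing ties libraries to separate animals, so the p-values reflect only how far these libraries scatter, which may be technical.

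Before S phase, the origin recognition complex, CDC6 and CDT1 load rings of MCM proteins onto DNA, and geminin blocks reloading. CDC45 and GINS then join the MCM ring to form the active helicase, polymerase alpha with primase starts each strand, and polymerases delta and epsilon extend it on the PCNA clamp. In a growing follicle the dividing cells are mostly granulosa cells, while oocytes are arrested in meiosis and do not replicate their DNA.

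Transcripts of 7 members fell in the CKO ovaries: Mcm2, Mcm3, Mcm7 and Mcm10 of the helicase, the flap nuclease Fen1, and Rrm2 and Tk1 of deoxynucleotide supply. Their mean FPKM in CKO was between 33.2% (Mcm10) and 60.6% (Fen1) of the WT mean. Mcm10 reached 1 FPKM in 7 WT and 0 CKO libraries, so it entered the test and the counts below through WT alone. Without it the lowest share was that of Rrm2 (47.4%). No member rose by limma, at an unadjusted p under 0.05 (0 members) or in an exact Wilcoxon rank test (0 members). In that rank test 5 members were lower, Mcm3, Mcm10, Rrm2, Tk1 and Cdc6, while Mcm2 (adjusted p = 0.13), Mcm7 (0.0947) and Fen1 (0.0682) did not pass. Of the 44 members, 36 had enough expression to be tested and 8 did not, so the 7 are 19.4% of those tested. Over all 13168 genes tested, 7.59% fell and 8.7% rose by the same rule, an adjusted p under 0.05 from limma, run on log2(FPKM + 1) with Benjamini-Hochberg adjustment. The estimate lay below 0 for 33 of the 36 members, against 50.7% of all genes. The median log2 difference was -0.32 over the members and -0.01 over all genes tested. The groups did not overlap for 5 members, Mcm3, Mcm10, Rrm2, Tk1 and Cdc6, with CKO lower in each, against 3.65% of all genes with CKO lower and 4.09% with CKO higher. The authors' deposited table gives a q under 0.05 to 6 members, the 7 that fell here without Mcm10, and to 6.7% of all genes tested with CKO lower. Its q for Mcm10 is the same as for Rfc4, a member listed at 0 in every library, so it can stand for a gene not tested. In whole ovaries, fewer cells of a dividing type and less RNA per cell cannot be told apart.

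**Figure D1:**
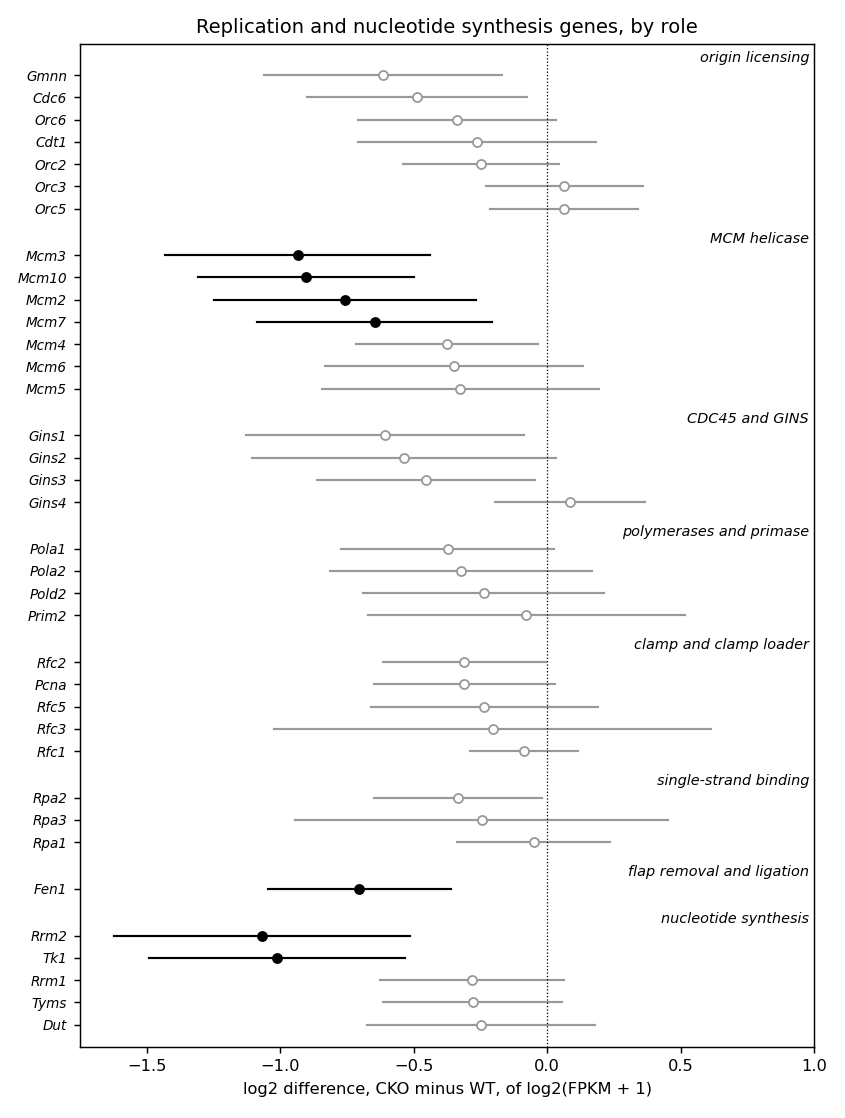
Estimated difference (CKO minus WT) of log2(FPKM + 1) for the 36 members tested, grouped by role; bars are 95% confidence intervals from limma. Filled black points are the 7 members past an adjusted p of 0.05 and open points the 29 that were not; 33 estimates lie left of 0.

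Marker transcripts of several cell types moved with the genotype as well. Of 14 granulosa cell markers, all above 0 in every library, 11 fell, and Kctd14, Amhr2 and Grb14 did not pass. The sum over all 14 was 3834 to 6797 FPKM in WT and 1572 to 2702 FPKM in CKO. Most of it was Inha, at 2479 to 4471 FPKM in WT and 985 to 1910 FPKM in CKO. Of 9 oocyte markers tested, 5 fell, with sums over all 12 of 62.1 to 219 FPKM in WT and 12.5 to 64.0 FPKM in CKO. Of 8 macrophage markers, 6 rose (267 to 1023 FPKM in WT, 769 to 1649 FPKM in CKO), as did 3 of 5 stromal markers (430 to 634 FPKM and 1299 to 1750 FPKM). Of 3 lymphocyte markers tested, 1 rose, and the sum over 6 was 2.27 to 6.02 FPKM in WT and 5.03 to 13.1 FPKM in CKO. Cd3d, a T cell marker too low to be tested, was listed at 0 in 6 of the 7 WT libraries and at 0.456 to 1.22 FPKM in CKO. These values are near the floor, where 1 fragment on a 1 kb transcript is worth 0.298 to 0.651 FPKM. Cd79a of the same list did not pass (log2 difference 0.10), nor did Cd3g (1.09). None of 5 theca markers passed the test. The part of these cell types in the differences of the replication genes was not tested.

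Libraries were not equal within the groups. CKO replicate 2 was the lowest CKO library for 20 of the 36 members (55.6%), against 25.5% of all genes, and CKO replicate 1 was the highest for 18 (50% against 21.7%). Among WT, the unnumbered library was the highest for 18 members (50% against 21.1%) and the lowest for none. Averaged over the 36 members on the log2(FPKM + 1) scale, the level was 2.57 in CKO replicate 2, between 2.86 and 3.20 in the other CKO libraries, and between 3.15 and 3.66 in WT, so the genotypes overlapped through CKO replicate 1. The oviduct gene Ovgp1 was at 252 FPKM in CKO replicate 2 and 81.9 FPKM in CKO replicate 3, and below 2 FPKM elsewhere. Without these 2 libraries 4 members fell, Mcm3, Mcm10, Rrm2 and Tk1, and the median of the members was -0.18. Without CKO replicates 1 and 5, which had the highest summed red blood cell markers of the CKO group (276 and 316 FPKM), 8 fell and the median was -0.50. These 8 included Gins2 and Rfc2 and did not include Mcm7.

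**Figure D2:**
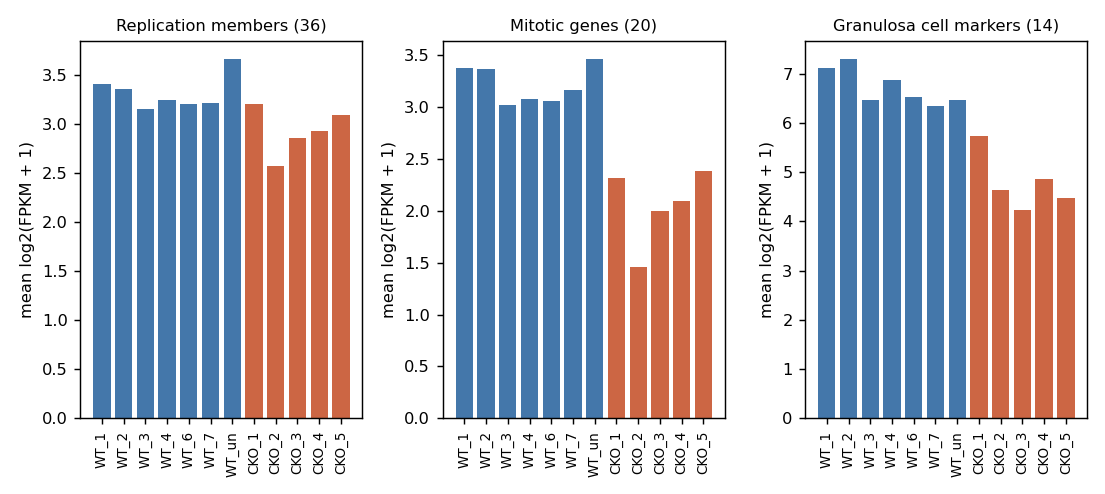
Mean log2(FPKM + 1) per library of the 36 replication members tested, 20 mitotic genes and 14 granulosa cell markers; blue bars are WT, orange bars CKO, and WT_un is the unnumbered WT library. The members' mean overlaps between genotypes (CKO replicate 1 at 3.20, WT replicate 3 at 3.15), while every CKO bar of the other 2 panels lies below every WT bar.

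The MCM genes held 4 of the 7 falls. MCM2 to MCM7 form the ring that unwinds DNA, and MCM10 helps to activate it. Mcm3 (chromosome 1, 20802968 to 20820312, minus strand, mm10) was at 8.04 FPKM in the lowest, 9.64 in the median and 13.5 in the highest WT library. In CKO replicates 1 to 5 it was at 6.57, 1.80, 5.03, 6.14 and 6.82 FPKM. Every CKO library lay below every WT library, and CKO replicate 2 was far below the others. The log2 difference was -0.93 with an SE of 0.23 (adjusted p = 0.0135, limma).

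Mcm2 (chromosome 6, 88883474 to 88898780, minus strand) ranged from 8.59 FPKM over a median of 11.6 to 17.1 FPKM in WT. In CKO replicates 1 to 5 it stood at 10.8, 4.33, 3.94, 6.19 and 9.63 FPKM. CKO replicates 1 and 5 reached into the WT range and the other 3 CKO libraries did not. Its log2 difference of -0.76 (SE 0.23) had an adjusted p of 0.0361 (limma). The call was lost in 8 of 12 fits that leave out 1 library, being kept only without WT replicate 3 or 6 or CKO replicate 1 or 5, with adjusted p between 0.0155 and 0.1.

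Mcm7 (chromosome 5, 138164583 to 138172422, minus strand) was at 6.47, 9.44 and 17.8 FPKM in the lowest, median and highest WT library. CKO replicates 1 to 5 had 7.80, 4.41, 6.63, 6.92 and 6.43 FPKM. Most of the contrast lay in WT libraries above the CKO range, since 6 of 7 WT libraries exceeded every CKO library. The log2 difference was -0.65 with an SE of 0.21 (adjusted p = 0.0447, limma). It passed in 2 of 12 fits that leave out 1 library, those without WT replicate 2 or 7, and adjusted p lay between 0.0177 and 0.104. In the deposited table its locus is shared with the microRNA genes Mir106b, Mir25 and Mir93, which lie within Mcm7.

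Mcm10 (chromosome 2, 4989714 to 5012791, minus strand) had the lowest levels of the MCM genes. WT libraries lay between 1.39 and 3.38 FPKM with a median of 2.26 FPKM. CKO replicates 1 to 5 were at 0.906, 0.225, 0.757, 0.946 and 0.997 FPKM, all below WT. The log2 difference was -0.90 with an SE of 0.19 (adjusted p = 0.00534, limma). All 7 WT libraries and 0 CKO libraries reached 1 FPKM, so Mcm10 entered the test through WT alone.

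Mcm4, Mcm5 and Mcm6 encode the remaining ring subunits, and none passed the test. Mcm6 (chromosome 1, 128331590 to 128359664, minus strand) was between 5.81 and 12.8 FPKM in WT, with a median of 7.46 FPKM. In CKO replicates 1 to 5 it was at 9.35, 3.99, 5.19, 5.45 and 8.0 FPKM, and 3 of these 5 lay below all WT libraries. Its log2 difference was -0.35 with a 95% confidence interval from -0.83 to 0.13 (adjusted p = 0.325, limma). Mcm5 (chromosome 8, 75109569 to 75128439, plus strand), the lowest of the ring subunits, ranged in WT from 1.84 over 3.63 to 6.79 FPKM. Its CKO values of 3.71, 1.84, 2.17, 3.32 and 3.65 FPKM lay within the WT range, with CKO replicate 2 level with the lowest WT library. The log2 difference was -0.33 with an interval from -0.84 to 0.19 (adjusted p = 0.402, limma). Mcm4 was at 9.63 ± 1.19 FPKM across WT (SD, n = 7) and 7.39 ± 2.24 FPKM across CKO (SD, n = 5), a log2 difference of -0.38 with an interval from -0.72 to -0.03 and an adjusted p of 0.127 (limma). The intervals of all ring subunits overlap, and a difference in response between subunits was not tested.

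**Figure D3:**
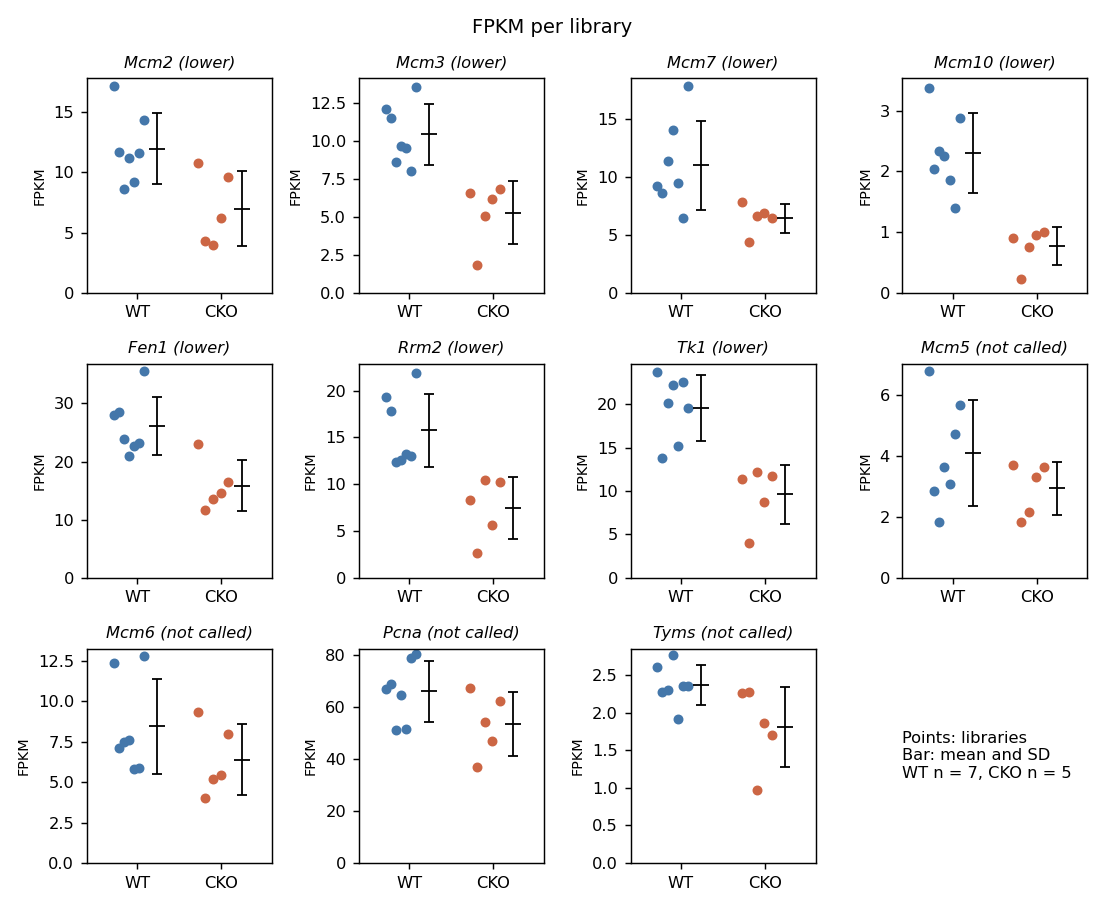
FPKM per library of the 7 members that fell and of Mcm5, Mcm6, Pcna and Tyms, each panel with its own axis from 0. Blue points are WT libraries (n = 7), orange points CKO libraries (n = 5), and bars give the mean and SD; the groups are apart for Mcm3, Mcm10, Rrm2 and Tk1.

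Nucleotide supply held 2 falls. Ribonucleotide reductase makes deoxynucleotides from ribonucleotides, and Rrm2 encodes its small subunit, whose level in other dividing cells rises in S phase. Rrm2 (chromosome 12, 24708241 to 24714146, plus strand) was at 12.3, 13.2 and 21.9 FPKM in the lowest, median and highest WT library. Its values in CKO replicates 1 to 5 were 8.27, 2.64, 10.4, 5.66 and 10.3 FPKM. The groups did not overlap, and CKO replicate 2 was again the lowest. The log2 difference of -1.07 (SE 0.26, adjusted p = 0.0121, limma) was the largest of the 36 members tested on the log2(FPKM + 1) scale. As a share of the WT mean FPKM, Mcm10 was lower in CKO (33.2%, against 47.4% for Rrm2). Rrm1, the large subunit, was at 12.6 ± 2.52 FPKM across WT (SD, n = 7) and 10.2 ± 2.14 FPKM across CKO (SD, n = 5), and did not pass (adjusted p = 0.264, limma).

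Tk1 encodes cytosolic thymidine kinase, which salvages thymidine in dividing cells (chromosome 11, 117815526 to 117826092, minus strand). WT libraries ranged from 13.8 FPKM over a median of 20.1 to 23.7 FPKM. CKO replicates 1 to 5 were at 11.4, 4.01, 12.2, 8.78 and 11.7 FPKM. No CKO library reached the WT range. Its log2 difference was -1.01 with an SE of 0.22 (adjusted p = 0.00725, limma). The deposited table gives Tk1 and the neighbouring gene Afmid the same locus, and how fragments were split between them was not tested. Tyms, thymidylate synthase (chromosome 5, 30058202 to 30073617, minus strand), makes the same nucleotide by the other route. It was at 1.92, 2.36 and 2.76 FPKM in the lowest, median and highest WT library and at 2.27, 2.27, 0.972, 1.86 and 1.7 FPKM in CKO replicates 1 to 5. CKO replicates 1 and 2 lay inside the WT range and the other 3 below it, with a log2 difference of -0.28 and an interval from -0.61 to 0.06 (adjusted p = 0.251, limma). Dut, which removes dUTP, was at 17.7 ± 3.69 FPKM across WT (SD, n = 7) and 15.2 ± 5.02 FPKM across CKO (SD, n = 5) without passing (adjusted p = 0.442, limma).

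Fen1 trims the flaps of Okazaki fragments, the short pieces of the lagging strand (chromosome 19, 10199132 to 10204169, minus strand). It was at 21.0, 23.8 and 35.7 FPKM in the lowest, median and highest WT library. In CKO replicates 1 to 5 the values were 23.0, 11.6, 13.6, 14.7 and 16.4 FPKM. CKO replicate 1 alone reached the WT range. The log2 difference was -0.70 with an SE of 0.16 (adjusted p = 0.00864, limma). It did not pass without CKO replicates 2 and 3 (-0.52, adjusted p = 0.0728, limma), nor in the exact Wilcoxon test (adjusted p = 0.0682). Lig1, the ligase that seals the trimmed fragments, was too low to be tested, between 0.204 and 0.497 FPKM in WT and 0.172 and 0.561 FPKM in CKO, at a locus shared with 6330408A02Rik.

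Pcna, the clamp that holds polymerases on DNA (chromosome 2, 132249162 to 132253314, minus strand), was the most abundant member. WT libraries lay between 51.1 and 80.1 FPKM with a median of 66.9 FPKM. CKO replicates 1 to 5 were at 67.3, 36.7, 54.0, 46.7 and 62.1 FPKM, with replicates 2 and 4 below WT and the other 3 inside its range. The log2 difference was -0.31 with an interval from -0.65 to 0.03 (adjusted p = 0.204, limma). The RFC subunits load this clamp. None of the 4 tested passed, with differences from -0.31 for Rfc2 to -0.09 for Rfc1, whose interval ran from -0.29 to 0.12. Among the alternatives, Rfc2 passed only when CKO replicates 1 and 5 were left out together (adjusted p = 0.0299, limma). Rfc2 was at 20.5 ± 2.89 FPKM across WT (SD, n = 7) and 16.5 ± 3.84 FPKM across CKO (SD, n = 5), and Rfc5 at 10.9 ± 3.31 and 9.09 ± 2.79 FPKM. Rfc3 spread widely within both groups, over 0.592 to 4.99 FPKM among WT and 0.469 to 4.47 FPKM among CKO libraries. Rfc4 was listed at 0 in all 12 libraries. Its deposited locus is shared with the abundant translation factor gene Eif4a2 and the small nucleolar RNAs Snora81 and Snord2, and a 0 in such a place can be a failed estimate.

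Licensing factors did not pass the test in any of 7 cases. Gmnn, which encodes geminin, was at 7.29 ± 2.07 FPKM across WT (SD, n = 7) and 4.39 ± 1.44 FPKM across CKO (SD, n = 5), with a log2 difference of -0.61 (adjusted p = 0.0587, limma). It passed in limma without WT replicate 1 (adjusted p = 0.0263) or without CKO replicate 5 (adjusted p = 0.0277). Cdc6, an MCM loader, was at 1.23 to 3.36 FPKM in WT libraries and at 0.598 to 1.08 FPKM in CKO libraries, without overlap. Its difference of -0.49 did not pass (adjusted p = 0.103, limma), and in an exact Wilcoxon rank test over all genes it did (adjusted p = 0.0327). Cdt1, the other loader, was at 6.81 ± 2.36 FPKM across WT (SD, n = 7) and 5.38 ± 1.37 FPKM across CKO (SD, n = 5).

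Subunits of the origin recognition complex mark the sites where MCM rings are loaded, and several of them are also present in cells that do not divide. Orc3 and Orc5 had estimates just above 0, both 0.06, with intervals from -0.23 to 0.36 and from -0.21 to 0.34. Orc2 was at 13.8 ± 2.39 FPKM across WT (SD, n = 7) and 11.5 ± 2.06 FPKM across CKO (SD, n = 5). Orc6 was at 16.2 FPKM in CKO replicate 1, above all WT libraries, and between 7.86 and 9.43 FPKM in the other 4 CKO libraries, below all of them. Without CKO replicate 1 its log2 difference moved from -0.34 to -0.52 and passed (adjusted p = 0.024, limma). Orc1, the subunit that cycles with S phase, was too low to be tested, at 0.211 to 1.01 FPKM in WT libraries and at 0 to 0.483 FPKM in CKO libraries.

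Of the 4 GINS subunits, which complete the helicase, none passed. Gins1 was at 4.14 ± 1.40 FPKM across WT (SD, n = 7) and 2.39 ± 0.986 FPKM across CKO (SD, n = 5), a log2 difference of -0.61 (adjusted p = 0.107, limma) that passed without WT replicate 3 (adjusted p = 0.0479). Gins2 was at 11.5 ± 3.15 and 8.08 ± 3.92 FPKM, and Gins3 at 5.09 ± 1.56 and 3.38 ± 0.721 FPKM in the same groups. Gins4, the most abundant of the 4, was at 19.4 ± 3.14 FPKM in WT and 20.6 ± 3.14 FPKM in CKO, with an interval from -0.20 to 0.37. Gins2 passed only when CKO replicates 1 and 5 were left out together (adjusted p = 0.0316, limma). Cdc45 was not tested, and no library exceeded 0.301 FPKM.

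Polymerase and primase transcripts were low. Pola1 and Pola2 encode 2 subunits of polymerase alpha, and their differences were -0.37 and -0.32 (adjusted p = 0.195 and 0.378, limma). Prim2, the large primase subunit, was at 2.87 ± 0.626 FPKM across WT (SD, n = 7) and 3.01 ± 1.78 FPKM across CKO (SD, n = 5), from 0.632 FPKM in CKO replicate 2 to 4.75 FPKM in CKO replicate 1. Pold2, an accessory subunit of polymerase delta, was at 7.81 ± 1.64 FPKM and 6.64 ± 2.36 FPKM, with an interval of the difference from -0.69 to 0.21. The remaining 4 were not tested. Pold1 and Pole, the catalytic subunits of polymerases delta and epsilon, reached at most 0.672 and 0.784 FPKM in any library. Prim1, the catalytic primase subunit, reached 1.29 FPKM and Pole2, the second subunit of polymerase epsilon, 0.397 FPKM. These 4 fell short of the filter of 1 FPKM in 5 libraries, in a table where 1 fragment on a 1 kb transcript is worth 0.298 to 0.651 FPKM.

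The RPA proteins coat single-stranded DNA in replication and in repair. Rpa1 was at 22.7 ± 4.51 FPKM across WT (SD, n = 7) and 21.6 ± 2.64 FPKM across CKO (SD, n = 5), with an interval from -0.34 to 0.24. Rpa2 was at 15.0 ± 3.71 and 11.5 ± 1.39 FPKM, with 4 of 5 CKO libraries below all WT libraries and a difference of -0.33 (adjusted p = 0.14, limma). Rpa3 varied in WT from 4.42 to 24.6 FPKM and in CKO from 6.46 to 16.2 FPKM (adjusted p = 0.666, limma). None of the 3 passed.

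In all, 9 members share their deposited locus with another gene, so their counts could be split between both and are less certain. Beside Mcm7, Tk1, Rfc4 and Lig1 these are Orc3 (with Akirin2), Orc5 (with Gm15421), Gins2 (with Gse1 and Mir7687), Pold1 (with Mir7053) and Pold2 (with Aebp1). Among genes named from the other lists, the same holds for Ticrr (with Kif7), Ppat (with Paics), Ccne2 (with Ints8), Skp2 (with Lmbrd2) and Rb1 (with Lpar6 and Mir687), and, each with a microRNA gene, for Clspn, Tpx2, Dnmt1 and Cdc25a.

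Promoter sequence was read to see what the members share beside function. E2F transcription factors drive many S phase genes, and the CCAAT box and the CHR element are common in promoters of cell cycle genes. RefSeq gives a promoter for 36 of the 44 members, and the entry farthest upstream was used, over the 250 bases before the start. E2F letters (TTTCCCGC, TTTCGCGC, TTTGCCGC or TTTGGCGC, either strand) were in 9 of 36, or 25.0%, against 1.9% of 27025 genes in the RefSeq table. Of the 7 members that fell, Mcm7 alone held them in this window. With the 50 bases after the start included, they were in 13 of 36 members (36.1%, against 2.3%), with Mcm3 and Mcm7 among the 7 that fell. Of 22 members tested without passing, 7 held them in the 250 bases, among them Mcm5 and Mcm6, and 8 with the 50 bases added. In the 250 bases before the start, CCAAT was in 21 of 36 members (58.3%, against 34.5% of all promoters), 5 of them among the 7 that fell. The CHR letters TTTGAA were in 4 of 36 in the same 250 bases (11.1% against 16.3%), with Fen1 and Mcm2 among them. Each motif was counted on its own whether or not it overlapped another, and a match is a description of letters, not of binding.

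The windows below are those of the 3 members with the smallest p, Mcm10 (chr2:5012792-5013041), Tk1 (chr11:117826015-117826264) and Fen1 (chr19:10204394-10204643), and of members with the largest p, Rpa1 (chr11:75348384-75348633) and Orc3 (chr4:34614943-34615192). Prim2 belongs with the latter. Mcm7 (chr5:138171884-138172133) and Mcm6 (chr1:128359706-128359955) were added after the search, as the member that fell with E2F letters and the member with the most of them. Coordinates are GRCm38.p6, all 7 genes lie on the minus strand, and each run reads 5′ to 3′ and ends at the base before the RefSeq start. That start differs from the GENCODE gene start for 6 of the 7: it lies inside the gene by 539 bases for Mcm7, 78 for Tk1 and 2 for Orc3, and upstream of it by 224 bases for Fen1, 59 for Rpa1 and 41 for Mcm6. Capitals mark E2F letters, CCAAT or TTTGAA on either strand.
Mcm10: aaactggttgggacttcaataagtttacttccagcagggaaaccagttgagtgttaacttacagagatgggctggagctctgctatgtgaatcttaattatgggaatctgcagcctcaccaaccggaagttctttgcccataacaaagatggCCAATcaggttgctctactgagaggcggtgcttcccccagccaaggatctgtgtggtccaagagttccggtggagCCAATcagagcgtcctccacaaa
Tk1: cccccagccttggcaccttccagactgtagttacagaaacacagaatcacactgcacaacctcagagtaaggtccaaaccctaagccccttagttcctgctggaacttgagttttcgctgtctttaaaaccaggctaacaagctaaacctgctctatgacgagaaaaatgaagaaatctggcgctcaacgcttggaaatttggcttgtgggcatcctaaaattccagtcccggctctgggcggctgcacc
Fen1: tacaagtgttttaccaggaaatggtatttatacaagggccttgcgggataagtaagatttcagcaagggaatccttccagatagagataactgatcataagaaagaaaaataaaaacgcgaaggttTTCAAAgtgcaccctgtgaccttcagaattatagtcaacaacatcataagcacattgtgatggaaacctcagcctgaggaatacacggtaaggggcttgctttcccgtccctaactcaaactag
Mcm7: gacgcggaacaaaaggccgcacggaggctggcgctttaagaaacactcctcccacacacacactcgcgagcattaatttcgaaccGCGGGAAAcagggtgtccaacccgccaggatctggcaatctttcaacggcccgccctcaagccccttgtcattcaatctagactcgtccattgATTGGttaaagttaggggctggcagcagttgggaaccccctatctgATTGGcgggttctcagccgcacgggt
Mcm6: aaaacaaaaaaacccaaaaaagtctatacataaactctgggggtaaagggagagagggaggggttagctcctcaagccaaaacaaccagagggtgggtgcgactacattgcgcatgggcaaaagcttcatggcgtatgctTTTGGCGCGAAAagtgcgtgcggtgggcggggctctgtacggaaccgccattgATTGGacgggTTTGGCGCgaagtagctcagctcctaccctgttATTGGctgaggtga
Rpa1: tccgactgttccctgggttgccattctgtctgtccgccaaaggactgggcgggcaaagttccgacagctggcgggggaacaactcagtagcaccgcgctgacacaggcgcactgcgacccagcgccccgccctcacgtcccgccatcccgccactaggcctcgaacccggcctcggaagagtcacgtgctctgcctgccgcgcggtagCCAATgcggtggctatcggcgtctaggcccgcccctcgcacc
Orc3: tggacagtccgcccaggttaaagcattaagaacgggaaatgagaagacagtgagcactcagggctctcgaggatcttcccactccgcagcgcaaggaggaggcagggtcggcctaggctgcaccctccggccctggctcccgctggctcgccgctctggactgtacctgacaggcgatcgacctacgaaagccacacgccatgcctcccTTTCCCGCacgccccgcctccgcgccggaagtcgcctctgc

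Mcm10 has CCAAT at 2 places and no E2F letters in this window, and Tk1 has none of the 3 motifs. In Mcm6, E2F letters start at -110 and -47 on the plus strand and at -106 on the minus strand, counted from the start, the first pair overlapping. Mcm6 and Orc3 hold E2F letters without having passed the test, so these letters in this window did not separate the members that fell from the others.

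Other genes of the pathway were read from lists that hold none of the members. For the lists that follow, 0 of 88 genes rose by limma or by the exact Wilcoxon test, with 2 higher at an unadjusted p under 0.05. Of 10 further origin and firing factors tested, 4 fell and 0 rose: Topbp1, Ticrr, Dbf4 and Cdc7, which trigger loaded origins. Topbp1 was at 6.19 ± 1.29 FPKM across WT (SD, n = 7) and 3.31 ± 0.651 FPKM across CKO (SD, n = 5), and Ticrr at 2.11 ± 1.02 and 0.496 ± 0.238 FPKM (adjusted p = 0.00582 and 0.00697, limma). Ticrr reached 1 FPKM in all 7 WT and 0 CKO libraries, so it entered the test through WT alone. Of 13 other fork and polymerase factors, Pole3 and Clspn fell and 0 rose. Pole3, a histone-fold subunit of polymerase epsilon, went from 28.0 ± 5.21 FPKM (SD, n = 7) to 17.1 ± 4.43 FPKM (SD, n = 5). Clspn, which encodes the checkpoint mediator claspin, went from 1.65 ± 0.413 to 0.706 ± 0.254 FPKM. Their adjusted p were 0.0139 and 0.0193 (limma). Clspn too entered the test through WT alone, with 7 WT and 0 CKO libraries at 1 FPKM or more, and did not pass without CKO replicates 2 and 3. Pole3 did not pass the exact Wilcoxon test (adjusted p = 0.0682). Pold4 of the same list stood higher in CKO, at 44.5 ± 9.44 FPKM (SD, n = 5) against 32.3 ± 5.92 FPKM in WT (SD, n = 7). Its log2 difference of 0.44 did not pass (adjusted p = 0.0549, limma), and 10 of the 13 estimates in this list lay below 0.

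Genes that rebuild chromatin behind the fork fell in 4 of 6 cases, namely Uhrf1, Chaf1a, Asf1b and Dnmt1. Uhrf1, which recruits the maintenance DNA methyltransferase, was at 10.5 ± 2.03 FPKM across WT (SD, n = 7) and 4.41 ± 1.64 FPKM across CKO (SD, n = 5). Chaf1a, a histone chaperone, was at 8.07 ± 1.98 and 4.27 ± 0.825 FPKM (adjusted p = 0.00148 and 0.00534, limma). Among other genes of deoxynucleotide supply, Dtymk, thymidylate kinase, was at 102 ± 6.66 FPKM across WT (SD, n = 7) and 83.7 ± 12.2 FPKM across CKO (SD, n = 5), short of the threshold (adjusted p = 0.0584, limma).

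None of 15 genes of purine and pyrimidine ring synthesis passed, a count of 0 in each direction by limma, with 1 gene lower and 1 higher at an unadjusted p under 0.05, 0 by the exact Wilcoxon test and a median log2 difference of -0.13. Those with the smallest p were Adss and Ppat, at 31.5 ± 3.52 FPKM and 16.2 ± 4.93 FPKM across WT (SD, n = 7) and 36.9 ± 3.39 FPKM and 11.5 ± 1.35 FPKM across CKO (SD, n = 5), with adjusted p = 0.14 and 0.157 (limma). Of 15 regulators of the passage from G1 to S phase, 9 fell and 0 rose. E2f2 went from 4.49 ± 1.35 to 1.71 ± 0.517 FPKM, and E2f7 from 2.18 ± 0.973 to 0.53 ± 0.145 FPKM (adjusted p = 0.00267 and 0.00451, limma). E2f7 reached 1 FPKM in all 7 WT and 0 CKO libraries and so entered the test through WT alone. E2f1, E2f3, E2f8, Ccne1, Ccne2, Cdc25a and Skp2 were the other 7 that fell. E2f4, Rb1 and Cdk2 were among those that did not pass.

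Mitotic genes, a list that includes Mki67, Top2a and Ccna2, gave the widest contrast with the members. All 20 tested fell, 1 of them (Bub1) entering the test through WT alone, with a median log2 difference of -1.16 and a range from -1.68 to -0.70, while the members' range was from -1.07 to 0.09. Aurkb, a mitotic kinase, was at 12.4 ± 1.74 FPKM across WT (SD, n = 7) and 4.34 ± 1.16 FPKM across CKO (SD, n = 5). Tpx2, a spindle assembly factor, was at 7.45 ± 0.744 and 2.24 ± 1.13 FPKM (adjusted p = 0.000238 and 0.000548, limma). Rrm2, Tk1, Mcm3, Mcm10 and Mcm2 had estimates within the mitotic range. Fen1 (-0.703) lay at its upper edge, set by Cdk1 (-0.704), and every other member tested lay above it. The difference between these lists was not tested.

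**Figure D4:**
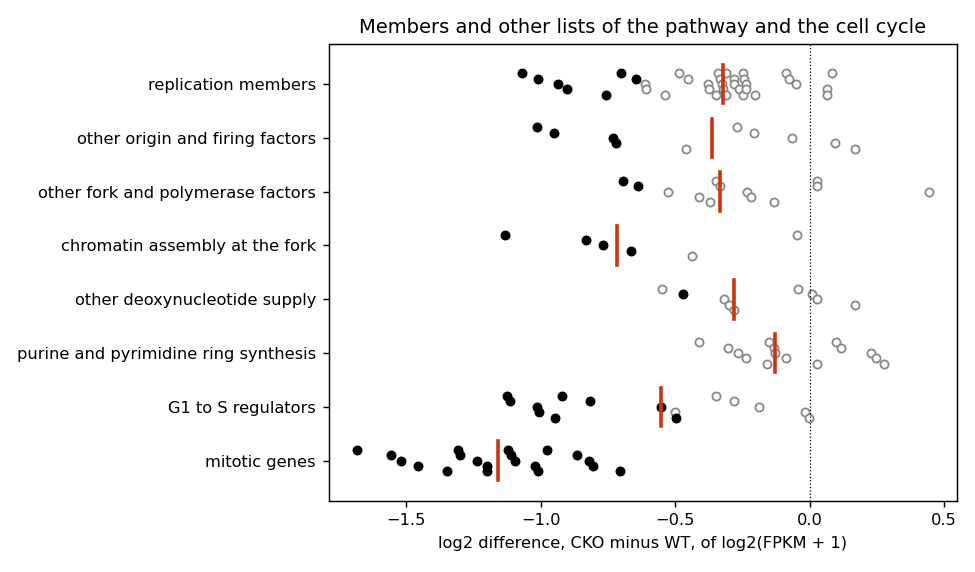
Differences (CKO minus WT) of log2(FPKM + 1) for the members and the other lists; each point is a gene tested, filled black where the adjusted p was under 0.05, and the red bar is the list's median. The members' median is -0.32, that of purine and pyrimidine ring synthesis -0.13 and that of mitotic genes -1.16.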

How the data were processed

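RNA sequencing libraries of whole ovaries (7 WT, 5 CKO) were compared. Values are FPKM as the authors deposited them. Per the submitters' processing notes, TopHat2 2.0.13, Cufflinks 2.2.1, Cuffdiff and the mm10 build were used, with no role or order named. The sources used here give neither the annotation nor the scaling nor any use of strand. The table also has columns deposited by the authors for a log2 fold change, a p-value and a q-value. The deposited log2 values match the ratio of mean FPKM (CKO divided by WT) to within 0.01 in 99.9% of the 13045 genes checked. They are quoted only where the authors' deposited table is named.

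Groups came from the sample titles. The name of 1 WT column fits the title of 1 WT sample and the description of another. It was used as a WT library with no number (the unnumbered WT library).

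FPKM were tested as log2(FPKM + 1) with limma 3.58.1 in R 4.3.3 (trended empirical Bayes, group only, two-sided, Benjamini-Hochberg over all genes tested, threshold 0.05). Genes needed at least 1 FPKM in at least 5 of 12 libraries, which 13168 of 24255 passed. Changes of low genes are understated on this scale. The fit was checked on simulated data. Depth is not given. Steps between low values put the libraries within a 2.18-fold range of depth. A single fragment per 1 kb of transcript then corresponds to 0.298 to 0.651 FPKM. After scaling for depth, 88.7% of the values of 1058 low genes were whole multiples of the gene's smallest value within 0.1. That share counts the smallest values themselves, and among values above them it was 82.3%.

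Members and lists were chosen with earlier results of these data known. Every member is named. Full values are given for members past the threshold and for Mcm5, Mcm6, Pcna and Tyms, and of each other list the 2 genes with the smallest p are given, except for 1 result that is not reported here. Other genes were named after their values were seen. Positions are from GENCODE M21 (mm10) and promoters from RefSeq (GRCm38.p6). Alternatives covered the pseudocount, filter, scaling, weights, an exact Wilcoxon test, left-out libraries and a replicate block. A fit without the block over the same libraries was chosen after seeing the data.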

Additional observations from a re-analysis of the deposited data

Results flagged for a closer look

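In the 72 groups of libraries examined (36 members in WT and in CKO), 6 held a library far from the others for the spread of its group, on the log2(FPKM + 1) scale, and chance flags about 1 in 20 groups. CKO replicate 2 stood low for Mcm3, at 1.80 FPKM against 5.03 FPKM in the next library, and for Mcm10, at 0.225 FPKM against 0.757 FPKM. CKO replicate 1 stood high for Orc6, at 16.2 FPKM against 9.43 FPKM. Among WT, the unnumbered library stood high for Cdc6, at 3.36 FPKM against 1.44 FPKM. WT replicate 3 was low for Pold2, at 4.23 FPKM against 7.62 FPKM, and WT replicate 1 was low for Rpa3, at 4.42 FPKM against 13 FPKM.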

How the results depend on the processing

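Of the 7 falls among the members, Tk1 passed under all alternatives, and Mcm10 under all in which it could be tested, which leaves out the block and the fit without it. The 12 fits that leave out 1 library gave 5 to 7 members lower, 732 to 1091 genes lower and 869 to 1193 higher over all genes, and a median of the members between -0.40 and -0.25. The calls of Mcm2, Mcm7 and Fen1 were lost in the exact Wilcoxon test, and those of Mcm3, Mcm7, Fen1 and Rrm2 with the replicate block. With no low-value filter Mcm2 and Mcm7 did not pass (5 members lower), and with array weights Mcm7 did not (6 members lower). Fewer members fell without CKO replicates 2 and 3 (4), and the median moved to -0.50 without CKO replicates 1 and 5. Over all genes, 671 were higher in the latter fit and 749 in the exact Wilcoxon test. Of the other pathway and cell cycle genes, 0 to 1 were higher when 1 library was left out, the 1 being Pold4 (without WT replicate 3 or 6 or CKO replicate 2 or 4). The replicate numbers shared by 4 libraries of each group did not pair them, since deviations of same-numbered libraries correlated at -0.07 to 0.09. With the replicate block, 2 members fell (Mcm2 and Tk1), 564 genes were lower and 702 higher over all genes, and 26 of the other pathway and cell cycle genes were lower. Without the block over the same 8 libraries, 4 members (Mcm3, Fen1, Rrm2 and Tk1) and 646 genes were lower, and fewer libraries enter both fits. Some estimates of members that did not pass changed sign. In the main fit these ran from values near 0 to -0.20 for Rfc3 and -0.24 for Rpa3. With the replicate block, and without it over the same libraries, Orc5 was at -0.060, Gins4 at -0.034, Rfc3 at 0.40 and Rpa1 at 0.029. Without CKO replicates 2 and 3, Orc3 was at -0.0066, Prim2 at 0.21 and Rpa3 at 0.030, and without CKO replicates 1 and 5, Gins4 was at -0.021 and Rfc3 at 0.29. Array weights gave 0.036 for Prim2 and 0.020 for Rpa1. Leaving out 1 library gave ranges of -0.023 to 0.12 for Orc3, -0.24 to 0.21 for Prim2, -0.41 to 0.067 for Rfc3 and -0.11 to 0.026 for Rpa1. The cause of these changes was not tested. The 3 scalings moved the median of all genes by less than 0.1.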
